A study of Mus musculus with 6 samples.

Results

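The haematopoietic growth factor receptors described here are 9 genes, Kit, Flt3, Csf1r, Epor, Csf3r, Csf2ra, Csf2rb, Csf2rb2 and Il6ra, chosen by symbol from the 24421 gene rows of the count table. All 9 had a row, and all 9 passed the filter on low counts. RNA was sequenced from bone marrow LK cells of C57BL/6 mice, that is, cells without markers of mature lineages that display c-Kit, the protein that Kit encodes. Such cells include stem cells and the progenitors of the myeloid, erythroid and megakaryocyte lineages. ASXL1-MT-KI mice carried mutant ASXL1 as a knock-in; ASXL1 acts on chromatin and is often mutated in myeloid neoplasms, and their wild type littermates were the controls. Each group had 3 libraries from mice of 8 to 12 weeks. The labels give neither the locus, the promoter nor any Cre driver of the knock-in, and do not say whether a library came from 1 animal, so p-values measure the spread between these libraries.

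Growth factor receptors let progenitors survive, divide and mature in response to secreted ligands. Kit, Flt3 and Csf1r are receptor tyrosine kinases that pair and phosphorylate each other when stem cell factor, FLT3 ligand or M-CSF binds. Epor and Csf3r, the receptors for erythropoietin and G-CSF, have no kinase of their own and signal as homodimers through JAK kinases bound to their tails. The other 4 are parts of mixed receptors: Csf2ra binds GM-CSF, Csf2rb is the signalling chain shared by the GM-CSF, IL-3 and IL-5 receptors, Csf2rb2 is a second beta chain of the mouse that serves IL-3, and Il6ra binds IL-6 and signals through Il6st. In the marrow, Kit marks stem and progenitor cells, Flt3 multipotent and lymphoid-primed progenitors, Epor the erythroid path, and Csf1r and Csf3r the monocyte and neutrophil paths.

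Total gene counts ran from 40462168 to 47579480 per library. Asxl1, which includes any reads of the knock-in allele that map to it, had 15525, 14763 and 12868 counts in the ASXL1-MT-KI libraries and 8077, 7793 and 6703 in the wild type libraries. Of 13548 genes tested, 2165 passed an adjusted p under 0.05 (edgeR quasi-likelihood test, Benjamini-Hochberg adjustment over all of them), which is 16% of them (8.29% higher and 7.69% lower in ASXL1-MT-KI). The groups did not overlap in 35.2% of genes tested. Levels are counts scaled to library size (CPM) with TMM factors, and log2 fold changes are ASXL1-MT-KI minus wild type. The libraries numbered 3 stood apart from the others in both groups, and values by library number are therefore given below.

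Among the 9 receptors, Flt3 alone passed the test, and it fell. This is 11.1% of the members, beside the 16% of all genes called, or the 7.69% called lower. Flt3 was also the single member of the 9 whose groups did not overlap, beside 35.2% of all genes tested. The other 8 did not pass, and each had an unadjusted p above 0.05; DESeq2 and limma-voom likewise called 1 member each. The median log2 fold change over the 9 was -0.12, beside 0.00 over all genes tested. With the library number as a block, Epor passed as well and was higher in ASXL1-MT-KI cells, so that 2 of 9 members (22.2%) were called, beside 30.5% of all genes (16.7% higher and 13.8% lower).

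The promoters of Flt3 and Epor, the 2 members for which a fit made a call, are printed as the 250 bases before the annotated start, from RefSeq on GRCm38.p6. Both genes lie on the minus strand, and the sequences read 5′ to 3′ along the gene. Flt3 is at chr5:147400490-147400739 and Epor at chr9:21963577-21963826. Capitals mark matches to 5 short motifs on either strand. The GATA motif was searched as AGATAA or with G as its last letter, and likewise as TGATAA or with G as its last letter. The motif searched for PU.1, a regulator of myeloid genes, was GAGGAA. For the RUNX factors the letters searched were TGTGGT. The housekeeping factor SP1 was searched as GGGCGG. The E-box of basic helix-loop-helix factors was searched as CANNTG. No 2 matches overlap in these windows.
Flt3: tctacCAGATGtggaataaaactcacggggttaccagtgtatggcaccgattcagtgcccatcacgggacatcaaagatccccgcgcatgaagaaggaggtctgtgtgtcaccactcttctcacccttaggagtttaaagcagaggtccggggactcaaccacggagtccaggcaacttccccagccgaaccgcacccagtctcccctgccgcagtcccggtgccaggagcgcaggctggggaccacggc
Epor: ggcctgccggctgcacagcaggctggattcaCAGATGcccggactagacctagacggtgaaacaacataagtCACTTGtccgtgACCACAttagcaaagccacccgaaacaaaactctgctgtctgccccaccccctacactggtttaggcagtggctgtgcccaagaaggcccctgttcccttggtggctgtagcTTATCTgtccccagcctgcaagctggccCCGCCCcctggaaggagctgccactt

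The Epor window holds a GATA match whose first base lies 54 bases before the start and an SP1 match at 26 bases. It also holds a RUNX match at 166 and E-box matches at 219 and 178. These distances count from the RefSeq start, which for Epor lies upstream of the GENCODE start at 21963506. GATA1, a regulator of erythroid genes, is known to act on the Epor promoter. The Flt3 window holds an E-box match at 245 bases and no match to the other 4 motifs. Promoter windows of full length were available here for 7 of the 9 members, all but Csf1r and Csf2rb. Of these 7, 3 hold a GATA match (Epor, Csf2rb2 and Il6ra), against 27.1% of 27025 promoters of the same length. PU.1 matches are in 5 of 7 (Kit, Csf2ra, Csf2rb2, Csf3r and Il6ra), against 23.1%. RUNX matches are in 1 of 7 (14.2% of all promoters), SP1 matches in 3 (32.9%) and E-box matches in 5 (66.0%). These matches describe the letters in the windows, and no binding was measured.

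Kit, on chromosome 5 from 75574916 to 75656722 (GENCODE M21, GRCm38), is the gene of the protein used for the sort. It had 17907, 17896 and 15745 counts in the ASXL1-MT-KI libraries and 17960, 17198 and 18380 in the wild type libraries, or 373, 396 and 379.5 CPM against 391, 375 and 453 CPM. The groups overlap, and the highest value is that of wild type library 3. The fold change was 0.942, with a 95% interval of 0.846 to 1.05 (log2 fold change -0.09 ± 0.069, SE; adjusted p = 0.446, edgeR). Kit transcript was thus abundant in every library, at 0.0367% to 0.0451% of all gene counts. Markers of lineages that the sort removes were scarce: Cd3g and Cd8b1 had no count in any library, which allows up to 3 counts, or 0.0631 to 0.0741 CPM, in each. Cd3e, Cd8a and Ms4a1 had at most 3 counts per library. Itgam, an integrin chain of myeloid cells that is also in that panel, was present and averaged 39.0 CPM in ASXL1-MT-KI and 36.6 CPM in wild type.

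**Figure D1:**
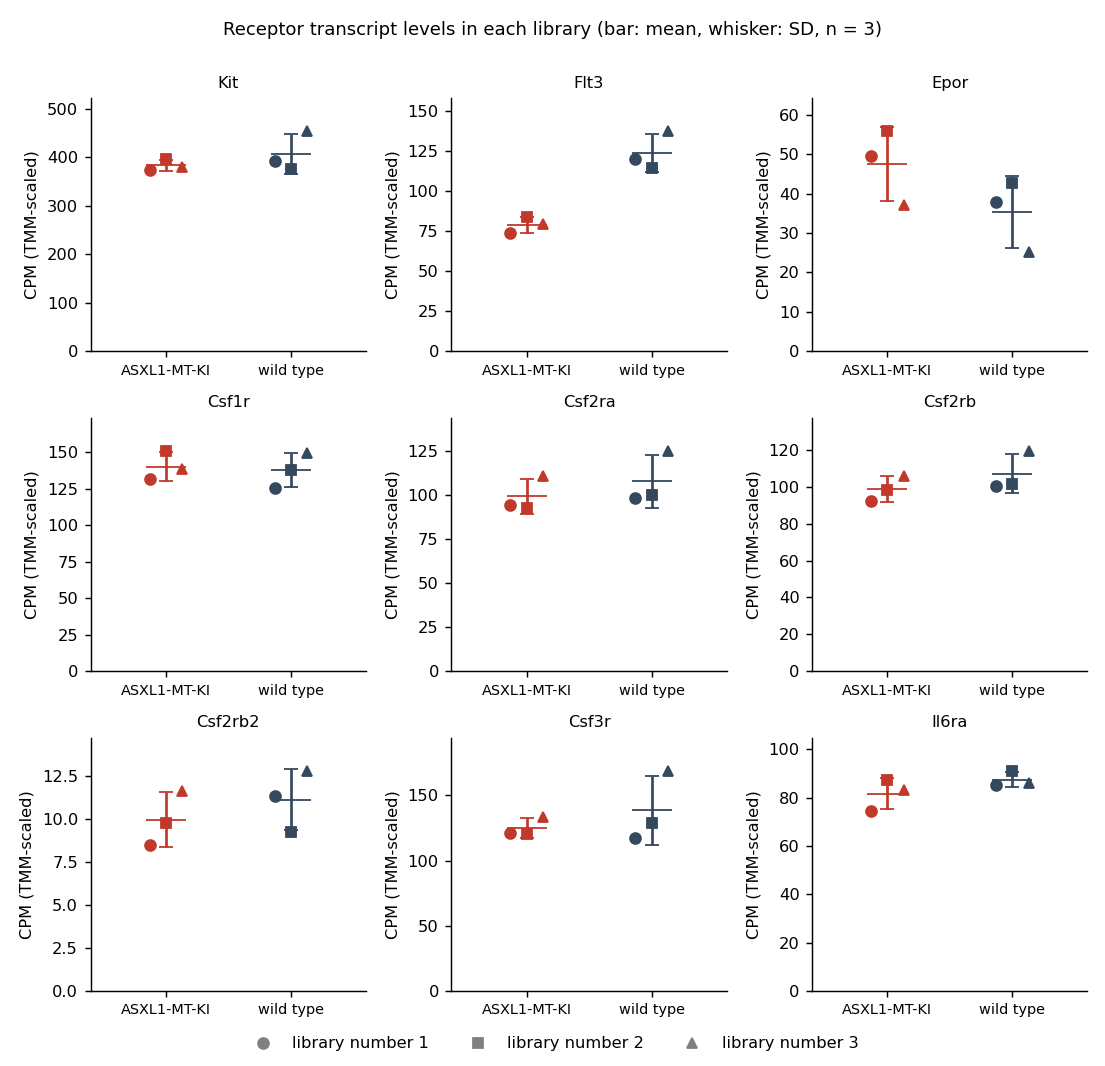
Transcript level (CPM, TMM-scaled, y axis from 0) of each of the 9 receptor genes in the 3 ASXL1-MT-KI and 3 wild type libraries; symbols give the library number, bars the mean and whiskers the SD. For Flt3 the ASXL1-MT-KI libraries (74.1 to 83.9 CPM) all lie below the wild type libraries (114 to 137 CPM), and in the other 8 panels the groups overlap.

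Flt3, on chromosome 5 from 147330741 to 147400489, had 74.1, 83.9 and 79.3 CPM in ASXL1-MT-KI libraries 1 to 3, against 119.9, 114 and 137 CPM in wild type. Every ASXL1-MT-KI library lies below every wild type library. The mean was 79.1 ± 4.90 CPM in ASXL1-MT-KI cells and 124 ± 12.0 CPM in wild type cells (SD, n = 3 each). Flt3 fell to 0.639 of the wild type level, with a 95% interval of 0.567 to 0.719 (log2 fold change -0.65 ± 0.076, SE; adjusted p = 0.00069, edgeR). Within library numbers 1, 2 and 3 the differences were -0.69, -0.45 and -0.79 on the log2 scale. An antisense gene, Gm26597, overlaps Flt3 in the annotation, and without strand its reads cannot be told from those of Flt3.

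Set against Kit in the same library, a ratio that no scaling factor touches, Flt3 stood at 19.9, 21.2 and 20.9 counts per 100 Kit counts in the ASXL1-MT-KI libraries. In the wild type libraries it stood at 30.6, 30.5 and 30.3. The SD of the log2 ratio was 0.049 in ASXL1-MT-KI and 0.0073 in wild type (n = 3 each), and the group means differed by -0.56. A two-sided exact permutation test over 3 against 3 libraries gave p = 0.1, the smallest it can give, and 0.4 after Benjamini-Hochberg adjustment over the 4 ratios computed. Of 11159 genes compared, the 2 whose profile over the 6 libraries was most like that of Flt3 were Crebrf, a regulator of the CREB3 stress factors, and Dgat1, an enzyme of triglyceride synthesis. Their centred log2 values differed from those of Flt3 by a root mean square of 0.048 and 0.054. Crebrf was at 14.1, 15.4 and 15.2 CPM in ASXL1-MT-KI and 24.0, 21.1 and 27.2 CPM in wild type.

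Markers of lymphoid priming moved with Flt3. In bulk RNA, fewer cells of a type and less RNA per cell cannot be told apart. Of 9 tested genes in a list of 10 B lymphoid markers, 4 fell, beside 7.69% of all genes called lower. The median log2 fold change of the 9 was -1.10. With the block 6 fell and 1 rose, beside 13.8% of all genes called lower and 16.7% called higher. The summed level of these markers was 41.7 to 53.9 CPM in ASXL1-MT-KI libraries and 64.8 to 90.6 CPM in wild type libraries. Dntt, the template-free DNA polymerase of lymphoid progenitors, was the most abundant of them on average and fell to 23.5 CPM in ASXL1-MT-KI, against 53.5 CPM in wild type (adjusted p = 0.0163, edgeR). With the library number as a block Dntt did not pass (adjusted p = 0.0935). Pax5, the factor that fixes B cell identity, had 0, 2 and 3 counts in ASXL1-MT-KI and 13, 10 and 11 in wild type. Cd79b, a chain of the B cell receptor complex, went the other way, at 20.1 CPM in ASXL1-MT-KI and 17.3 CPM in wild type; it passed with the block alone (adjusted p = 0.112 without it and 0.0310 with it, edgeR). Flt3 per 100 CPM of these markers was 147 to 177 CPM in ASXL1-MT-KI libraries and 144 to 177 CPM in wild type libraries, so on that measure the groups overlap. Dntt and Cd79b, whose differences had opposite signs, made up most of the B lymphoid sum, so the measure rests mainly on these 2 genes. In the list of 11 stem cell markers 6 fell and 2 rose, beside 7.69% and 8.29% of all genes. The stem cell markers summed to 528 to 590 CPM in ASXL1-MT-KI and 634 to 719 CPM in wild type. Flt3 per 100 CPM of the stem cell markers was 13.3 to 15.9 CPM in ASXL1-MT-KI and 17.8 to 19.1 CPM in wild type, without overlap. Most of the stem cell sum was Cd34 (303 CPM in ASXL1-MT-KI and 375 CPM in wild type) and Gata2 (181 and 184 CPM). That ratio therefore says little about the other stem cell markers. The part of these cell types in the fall of Flt3 was not tested.

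Csf1r, the third receptor kinase, on chromosome 18 from 61100598 to 61132149, did not pass. It was at 131, 151 and 138 CPM in ASXL1-MT-KI libraries and at 126, 138 and 149 CPM in wild type libraries, with full overlap. The fold change was 1.02, with a 95% interval of 0.910 to 1.14 (adjusted p = 0.845, edgeR). Hmgxb3, a protein-coding gene on the other strand, overlaps Csf1r, and had 2907 to 3441 counts in ASXL1-MT-KI and 2681 to 3177 in wild type libraries. Among 13 tested monocyte and dendritic cell markers 3 fell, beside 7.69% of all genes called lower. With the block 5 fell and 2 rose, beside 13.8% of all genes called lower and 16.7% called higher. The summed level of these markers was 1257 to 1443 CPM in ASXL1-MT-KI and 1352 to 1369 CPM in wild type.

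Epor, on chromosome 9 from 21958897 to 21963506, differed more between library numbers than between genotypes. It had 49.4, 55.8 and 37.2 CPM in ASXL1-MT-KI libraries 1 to 3, against 38.0, 42.7 and 25.2 CPM in wild type. Library 3 was the lowest in each group, by -0.50 in ASXL1-MT-KI and -0.68 in wild type on the log2 scale relative to numbers 1 and 2. Across the groups the values overlap, and without a block the log2 fold change was 0.43 ± 0.24 (SE; adjusted p = 0.296, edgeR), with a 95% interval of the fold from 0.893 to 2.02. Within each number ASXL1-MT-KI was higher, by 0.38, 0.38 and 0.57. With the number as a block the log2 fold change was 0.44 ± 0.058 (SE; adjusted p = 3.5e-05, edgeR), and with the libraries numbered 3 left out and no block it was 0.38 (adjusted p = 0.0107, edgeR). No label says what the numbers stand for, and the pairing was read from the counts.

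The summed erythroid markers showed the same layout as Epor, with library 3 lowest in each group. Most of that sum was Car1 (651 CPM in ASXL1-MT-KI and 545 CPM in wild type) and Car2 (804 and 651 CPM). All 10 tested markers had positive log2 fold changes, with a median of 0.47. Slc4a1, the anion exchanger of the red cell membrane, was the 1 that passed without the block, at 5.58 CPM in ASXL1-MT-KI and 2.60 CPM in wild type. It had another layout, at 6.13, 4.98 and 5.64 CPM in ASXL1-MT-KI and 2.59, 2.66 and 2.54 CPM in wild type, without overlap. With the block all 10 markers passed as higher, beside 16.7% of all genes called higher with the block and 8.29% without it. The summed level of the markers was 2545, 2716 and 1981 CPM in ASXL1-MT-KI libraries 1 to 3, against 2127, 2298.5 and 1398 CPM in wild type. Per 100 CPM of these markers, Epor was at 1.94, 2.05 and 1.88 CPM in ASXL1-MT-KI and at 1.79, 1.86 and 1.80 CPM in wild type. On that measure library 3 lay near the others of its group, and the lowest ASXL1-MT-KI library was just above the highest wild type library. Whether the share of erythroid cells accounts for the Epor values was not tested.

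**Figure D2:**
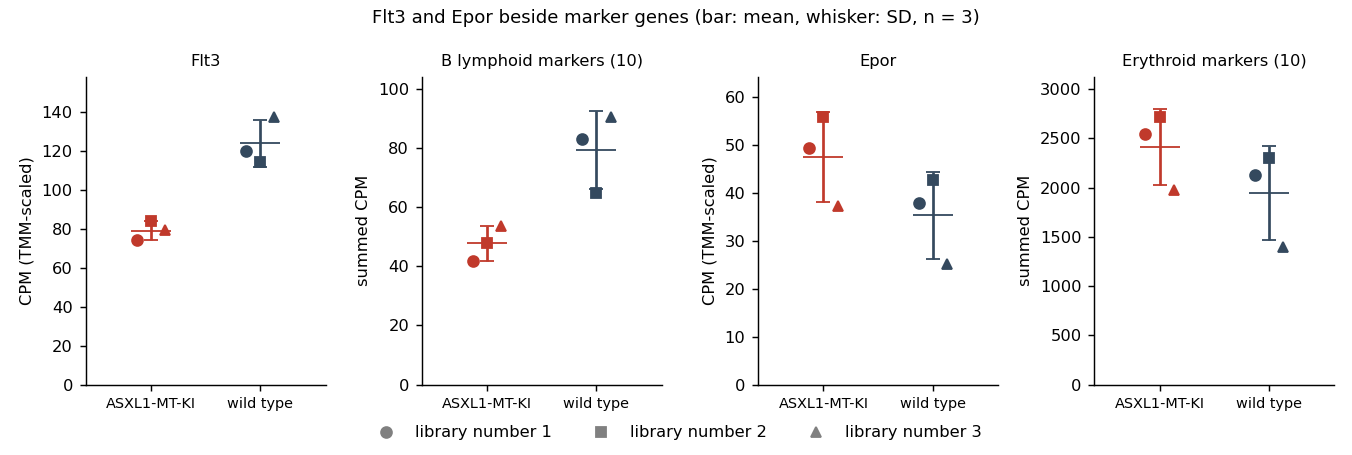
Flt3 and Epor levels (CPM, y axis from 0) beside the summed CPM of 10 B lymphoid and 10 erythroid marker genes, in ASXL1-MT-KI and wild type libraries; symbols give the library number, bars the mean and whiskers the SD. Flt3 and the B lymphoid sum are lower in every ASXL1-MT-KI library, and Epor and the erythroid sum are lowest in library 3 of each group.

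Csf3r, on chromosome 4 from 126024550 to 126044440, did not pass either. It was at 121, 120.4 and 134 CPM in ASXL1-MT-KI libraries and at 118, 129 and 169 CPM in wild type libraries. Wild type library 3 stands above the other 5. The log2 fold change was -0.15 (fold interval 0.731 to 1.12; adjusted p = 0.498, edgeR), and it was 0.02 without wild type library 3. The 12 neutrophil markers summed to 18913 to 20064 CPM in ASXL1-MT-KI and 18419 to 20360 CPM in wild type. Mpo made up most of that sum, at 14009.8 CPM in ASXL1-MT-KI and 13941.5 CPM in wild type. Without the block 0 of the 12 markers passed. With it 6 rose and 0 fell, beside 16.7% of all genes called higher with the block. Csf1r had 109, 125 and 104 counts per 100 Csf3r counts in ASXL1-MT-KI and 107, 107 and 88.4 in wild type (exact permutation p = 0.4, two-sided, n = 3 each).

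The 3 genes of the GM-CSF and IL-3 receptors had small negative differences that did not pass. Csf2ra, on chromosome 19 from 61223957 to 61228429, was at 93.9, 92.6 and 111 CPM in ASXL1-MT-KI libraries and 98.2, 99.8 and 125 CPM in wild type libraries (fold 0.921, interval 0.778 to 1.09; adjusted p = 0.499, edgeR). Csf2rb, on chromosome 15 from 78325752 to 78353847, was at 92.1, 98.3 and 106 CPM in ASXL1-MT-KI and 101, 101 and 119 CPM in wild type (fold 0.923, interval 0.816 to 1.04; adjusted p = 0.361, edgeR). In both genes library 3 was the highest of its group, and the groups overlap. With the block, Csf2ra and Csf2rb came close to the threshold, at adjusted p = 0.0516 and 0.0563 (edgeR). The ligand-binding and the shared chain kept close step: Csf2ra had 102, 94.3 and 104 counts per 100 Csf2rb counts in ASXL1-MT-KI and 97.6, 98.5 and 104 in wild type (exact permutation p = 0.9, two-sided, n = 3 each).

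Csf2rb2, the IL-3 beta chain, lies beside Csf2rb on chromosome 15, from 78282507 to 78305721 on the other strand. It was the weakest of the 9, at 8.48, 9.78 and 11.7 CPM in ASXL1-MT-KI libraries and 11.4, 9.27 and 12.8 CPM in wild type libraries. Again the groups overlap, and the fold was 0.895 (interval 0.711 to 1.13; adjusted p = 0.510, edgeR). There were 9.21, 9.95 and 11.0 Csf2rb2 counts per 100 Csf2rb counts in ASXL1-MT-KI and 11.3, 9.15 and 10.7 in wild type (exact permutation p = 0.8, two-sided, n = 3 each). The 2 genes are close paralogs. In the longest GENCODE transcript of Csf2rb2, 5.22% of windows of 124 bases, the length of a read, also occur in Csf2rb transcripts, and 29.1% of windows of 31 bases do. How the counting treated reads that match both is not given in the sources used here, so their separate levels are uncertain to that extent.

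The last member, Il6ra, on chromosome 3 from 89864059 to 89913196, varied least between wild type libraries. It was at 74.6, 87.1 and 83.1 CPM in ASXL1-MT-KI and at 85.1, 91.0 and 86.2 CPM in wild type, with overlap. The fold was 0.933 (interval 0.844 to 1.03; adjusted p = 0.334, edgeR). The annotated antisense gene Gm42809 overlaps it. Among the members, the coefficient of variation within a group ran from 3.06%, that of Kit in ASXL1-MT-KI, to 25.8%, that of Epor in wild type.

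In both genotypes several members differed between the number 3 library and numbers 1 and 2, a contrast of 1 library against 2. Relative to numbers 1 and 2, the number 3 libraries had more Csf2rb2 (0.36 in ASXL1-MT-KI and 0.32 in wild type, log2), Csf2ra (0.25 and 0.33), Csf2rb (0.16 and 0.24) and Csf3r (0.15 and 0.45). For Kit (-0.02 in ASXL1-MT-KI and 0.24 in wild type), Flt3 (0.01 and 0.23) and Csf1r (-0.02 and 0.18), number 3 was the highest library in wild type and not in ASXL1-MT-KI. Wild type libraries 1 and 2 also differed from each other, as for Csf2rb2 (11.4 and 9.27 CPM) and Csf1r (126 and 138 CPM). Mast cell, basophil and eosinophil markers, which include cells that use IL-3 and IL-5, summed to 627 to 721 CPM in wild type. In ASXL1-MT-KI libraries 1 to 3 they summed to 384, 325 and 626 CPM. Of the 8 tested, 7 had negative differences, but 0 passed without the block. With it 3 fell, beside 13.8% of all genes called lower with the block. The part of these markers in the receptor values was not tested.

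**Figure D3:**
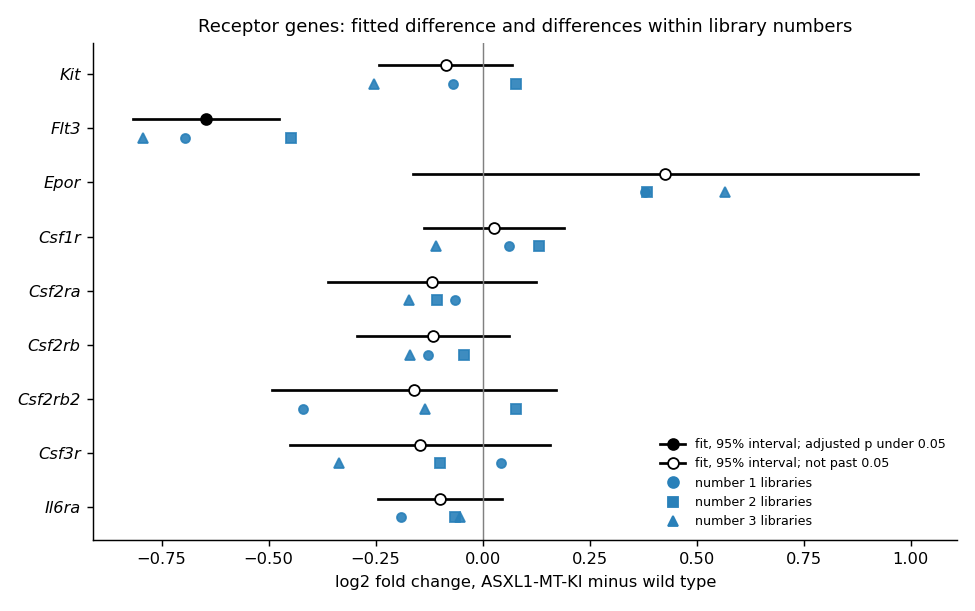
Log2 fold change (ASXL1-MT-KI minus wild type, x axis) of each receptor gene: circles with lines give the fit without a block and its 95% interval, filled where the adjusted p is under 0.05, and blue symbols the differences within library numbers 1, 2 and 3. The Flt3 interval (-0.82 to -0.48) lies below 0, and for Epor all 3 within-number differences (0.38, 0.38 and 0.57) are positive although the interval (-0.16 to 1.02) spans 0.

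Divided by length, the 9 receptors covered a wide range of levels in these cells. Per kilobase of merged GENCODE exons, Kit led with 43.0 ± 1.31 CPM per kb in ASXL1-MT-KI and 45.6 ± 4.60 in wild type (SD, n = 3 each). Csf3r followed at 34.6 ± 2.07 and 38.4 ± 7.44, and Csf2ra at 34.5 ± 3.49 and 37.5 ± 5.16; the ranges of these 2 overlap in both groups, and in wild type that of Csf3r also overlaps that of Kit. Csf1r was at 24.3 ± 1.69 CPM per kb in ASXL1-MT-KI and 23.8 ± 2.03 in wild type. Below it the order differs between the groups: in wild type Flt3 had rank 5 (20.1 ± 1.94 CPM per kb), before Epor (17.7 ± 4.57) and Csf2rb (14.7 ± 1.46), while in ASXL1-MT-KI Epor had rank 5 (23.9 ± 4.74), before Csf2rb (13.6 ± 0.958) and Flt3 (12.8 ± 0.794). In ASXL1-MT-KI the ranges of Csf1r and Epor, and of Csf2rb and Flt3, overlap. In wild type each of Csf1r, Flt3, Epor and Csf2rb overlaps the next. Il6ra (9.44 ± 0.735 in ASXL1-MT-KI and 10.1 ± 0.359 in wild type) and Csf2rb2 (2.10 ± 0.338 and 2.35 ± 0.376) closed the order in both groups, clear of their neighbours. With the length of the longest transcript in place of merged exons, an alternative chosen after seeing the data, Csf2ra came before Csf3r in both groups, and in wild type Flt3 had rank 4 and Epor rank 7.

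**Figure D4:**
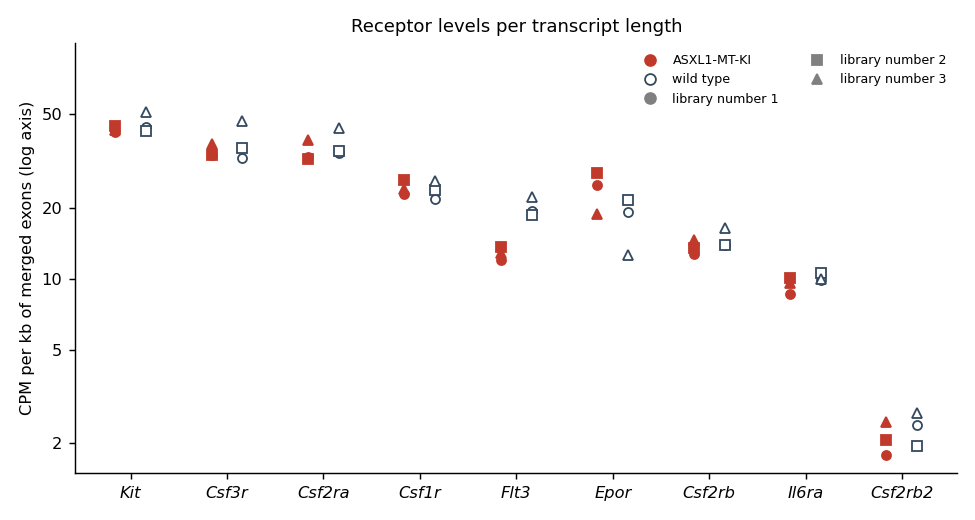
Receptor levels per transcript length (CPM per kb of merged exons, log axis) in ASXL1-MT-KI (filled) and wild type (open) libraries, in the order of the wild type means; symbols give the library number. Kit is highest and Csf2rb2 lowest in both groups, and Flt3 is the gene whose filled and open symbols separate.

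Other genes of growth factor signalling were read from the same fit, in 6 lists of 164 genes, of which 141 were tested. Of these, 40 passed (28.4%, beside 16% over all genes), 10 of them higher and 30 lower; with total counts in place of TMM scaling, 17 were higher and 21 lower. Over all genes tested, 1123 were higher and 1042 lower with TMM scaling and 1562 and 767 with total counts, which shifted the median of all genes by 0.05. With the block 65 passed, 24 higher and 41 lower. The median log2 fold change over the 141 was -0.06. The 6 lists were chosen with earlier results of these data known, so the share called is no independent test of them.

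Of the ligand genes, Csf1, which encodes M-CSF, the ligand of Csf1r, was the most abundant, at 14.2 CPM in ASXL1-MT-KI and 15.7 CPM in wild type, and did not pass (adjusted p = 0.459, edgeR). Epo had no count in any library, and Il3, Il5, Il34, Kitl and Csf2 had 0 to 4 counts each. Of 7 ligand genes tested, 1 passed: Flt3l, which encodes FLT3 ligand, was at 9.34 ± 0.645 CPM in ASXL1-MT-KI and 7.24 ± 0.0960 CPM in wild type (log2 fold change 0.37, adjusted p = 0.0300, edgeR). The rise of Flt3l did not pass without ASXL1-MT-KI library 1 or 2 or wild type library 1 or 2 (adjusted p 0.0693 to 0.117). Il6 was at 48, 17 and 72 counts in ASXL1-MT-KI and 238, 95 and 103 in wild type and did not pass (adjusted p = 0.110, edgeR); Csf1, Il6 and the partner chains below were chosen after their values were seen.

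Among other cytokine receptor chains, 1 of 25 tested rose and 5 fell, with a median of -0.07. Crlf2, a chain of the TSLP receptor, fell to 53.4 ± 3.52 CPM in ASXL1-MT-KI, against 75.6 ± 5.72 CPM in wild type (log2 fold change -0.50, adjusted p = 0.0018, edgeR). Il15ra, the IL-15 binding chain, rose by 0.62 on the log2 scale. The partners of the members did not pass: Il3ra was at 35.7 and 37.0 CPM in ASXL1-MT-KI and wild type, Il6st at 41.7 and 38.7 CPM, and Il5ra at 0.891 and 1.27 CPM. Among 18 other receptor tyrosine kinases tested, 1 rose and 2 fell (median 0.11), and with the block 4 rose and 2 fell. Ryk, a Wnt co-receptor, rose to 24.4 ± 2.72 CPM in ASXL1-MT-KI, against 10.1 ± 2.05 CPM in wild type. Fgfr1, a fibroblast growth factor receptor, fell by 1.45, and Tie1, a partner of the angiopoietin receptor, fell by 0.32; Tie1 did not pass with total counts (adjusted p = 0.0678) or without ASXL1-MT-KI library 2, wild type library 2 or wild type library 3 (0.0571 to 0.101).

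Downstream of the receptors, falls were more frequent than rises. Of 36 adaptors and proximal enzymes 2 rose and 8 fell (median -0.09), and with the block 4 rose and 13 fell. With total counts in place of TMM scaling, 4 of the 36 rose and 6 fell. Sh2b3, the adaptor LNK that restrains signalling from Kit and Epor, fell to 65.0 ± 1.21 CPM in ASXL1-MT-KI, against 85.9 ± 4.16 CPM in wild type (adjusted p = 0.0012, edgeR). Irs2, an adaptor of insulin and cytokine receptors, fell by 0.51, and the kinase gene Src rose by 1.17 from a low level. Without ASXL1-MT-KI library 2 the 10 calls became 4, without wild type library 1 they became 5, and without ASXL1-MT-KI library 1 they became 6. Of 26 JAK, STAT, SOCS, PIM and PIAS genes 1 rose and 9 fell (median -0.12), which is 38.5% of them. With total counts 2 rose and 6 fell. Pim1, a kinase gene induced by STAT5, fell by 0.89, and the STAT5-induced feedback inhibitor Cish fell by 1.49, while Socs5 rose by 0.44. The Socs5 call was lost without ASXL1-MT-KI library 2 (adjusted p = 0.0571) and without wild type library 1 (adjusted p = 0.0662). Without ASXL1-MT-KI library 2 the 10 calls became 5, and without wild type library 1 or ASXL1-MT-KI library 1 they became 6. Jak2, the kinase that Epor and the beta chains use, was at 119 CPM in ASXL1-MT-KI and 125 CPM in wild type and did not pass (adjusted p = 0.441, edgeR); it too was chosen after its value was seen.

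Of 29 transcription regulators of myeloid and erythroid genes, 4 rose and 6 fell (median -0.03), and with the block 10 rose and 9 fell. Hoxa9, a homeobox factor of immature progenitors, rose to 36.4 ± 2.91 CPM in ASXL1-MT-KI, against 23.1 ± 1.20 CPM in wild type (adjusted p = 0.00071, edgeR). Runx1, a core binding factor of blood formation, fell by 0.35, and Cebpb, a factor of emergency granulopoiesis, fell by 0.38 on the log2 scale. Without wild type library 1 or ASXL1-MT-KI library 1 the 10 calls became 6.

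**Figure D5:**
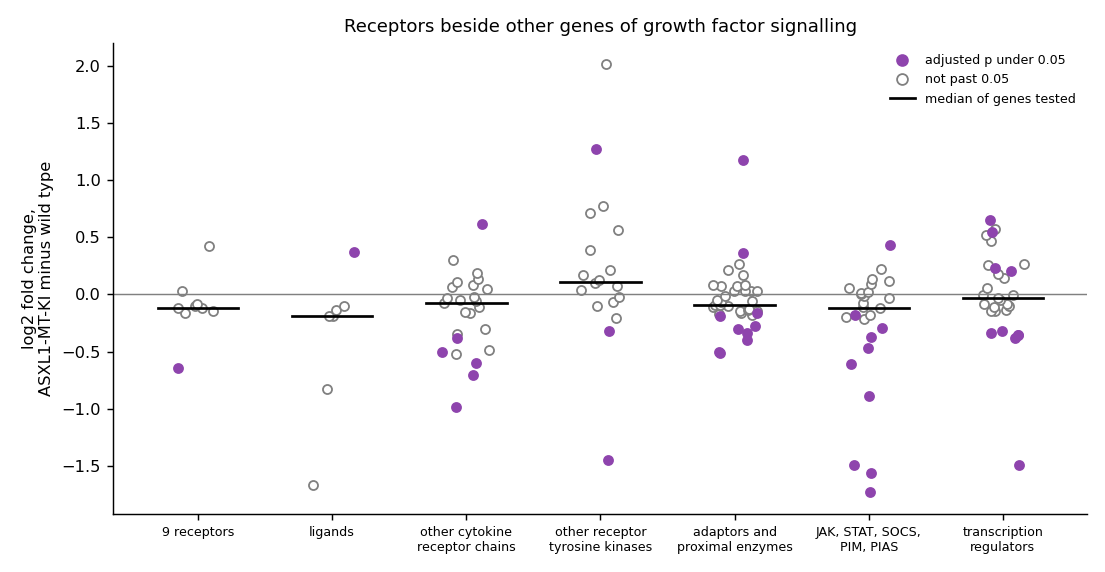
Log2 fold change (ASXL1-MT-KI minus wild type, y axis) of the 9 receptors and of the tested genes in 6 lists of growth factor signalling; each point is a gene, filled where the adjusted p is under 0.05, and lines give the median. Of the receptors Flt3 is filled, at -0.65, and the JAK, STAT, SOCS, PIM and PIAS list has 9 filled points below 0 and 1 above.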

How the data were processed

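LK cell RNA was sequenced in 3 ASXL1-MT-KI and 3 wild type libraries; per the labels, 200 ng RNA went into a NEBNext Ultra kit and was read as 124 bp pairs. HISAT2 2.0.4 and mm10 are listed in the submitters' processing notes. For the counting tool and its treatment of strand and shared reads, none of the sources used here gives them. The table the authors deposited holds raw counts per gene symbol. Columns were matched to samples by genotype and number.

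Counts of 13548 genes that passed filterByExpr (minimum count 10) were fitted with edgeR 4.0.16 in R 4.3.3 (TMM, robust quasi-likelihood F test, genotype only, Benjamini-Hochberg over all genes at 0.05). Standard errors are the log2 fold change over the square root of F. No 2 libraries of a group agreed within sampling noise. Deviations from group means correlated across genes at 0.253, 0.162 and 0.391 between same-numbered libraries, all above 0.1, so the numbers were taken to pair libraries; the pairing is from the counts, not the labels. ASXL1-MT-KI library 1 and wild type library 2 also correlated, at 0.163. The fit was tested on simulated data. Alternatives were the replicate block, 2 other scalings, DESeq2 1.42.0, limma-voom (limma 3.58.1), 2 other filters and left-out libraries. Floors and intervals of counts cover counting error alone.

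The 9 members and all lists were chosen with earlier results of these data known. Named from each signalling list were up to 3 called genes with the lowest p, at most 2 in 1 direction, less any gene not reported here; the 2 genes most like a called member had at least 1 mean CPM. Single marker genes were named after their values were seen. Ly6g and Epb42 of the marker lists had no row. Coordinates and lengths are from GENCODE M21, and figures were drawn with matplotlib 3.10.9.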

Additional observations from a re-analysis of the deposited data

How the results depend on the processing

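Flt3 fell past the threshold in all 14 alternatives run, with log2 fold changes from -0.70 to -0.57. The replicate block, which uses the pairing by library number, called 2 receptors in place of 1, 65 signalling genes in place of 40 and 4132 genes in place of 2165; it added Epor (log2 fold change 0.44) and changed no other receptor call. Leaving out the libraries numbered 3 of both groups also called 2 receptors, Epor at 0.38 being the addition. By construction the block takes out the spread between library numbers. With 1 library left out, 1 receptor was called each time, the signalling genes called numbered 24 to 36, and all genes called 1128 to 2257, with Epor at log2 fold changes from 0.24 to 0.59. The other 7 receptors passed in no alternative; the sign of Kit turned without the libraries numbered 3, that of Csf1r without ASXL1-MT-KI replicate 2 or wild type replicate 1, and those of Csf2ra and Csf3r without wild type replicate 3. The 4 ratios stayed within 1 SD of the reported value in every alternative computed for them. Each receptor had at least 407 counts in every library.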
